A study of Saccharomyces cerevisiae with 4 samples.

Results

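Meiosis and sporulation genes of budding yeast were followed in haploid cells of mating type a, which do not normally enter meiosis. The genes were chosen by symbol and not by signal, and a probe set qualified when the array annotation gave it 1 of these symbols. All 32 genes had 1 probe set each, out of 5449 genes with a probe set in the series. They were sorted into 3 early regulators, 13 early genes of recombination and pairing, 13 middle genes and 3 mid-late or late genes.

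In 2 cultures the cells carried p425-GPD-RNase H1, a LEU2 plasmid for overexpression of RNase H1, and in 2 control cultures they carried the empty vector p425-GPD. Both groups were strain BY4741 (MATa), with the alleles leu2∆0 and ura3∆0 as well as met15∆0 and his3∆1, grown at 30°C to mid-log phase in synthetic medium lacking leucine. GPD is a constitutive yeast promoter. The species of the RNase H1 gene is not stated in the labels. Total RNA from each culture, described in the labels as a biological replicate, was hybridised to 1 Affymetrix Yeast Genome 2.0 array.

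Entry into meiosis needs diploid cells and starvation. In haploid cells the repressor Rme1 keeps IME1, the master activator of the programme, low. Ume6, acting with the histone deacetylase Rpd3 and its partner Sin3, represses early genes in growing cells, and Sum1, with Rfm1 and Hst1, represses many middle genes. Ime1 then switches on early genes, the transcription factor Ndt80 switches on middle genes, and spore wall genes follow. RNase H1 removes RNA that is paired with DNA. The comparison asks whether the normally silent meiotic programme looked different in haploid cells that carried the plasmid for this enzyme.

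The array also carries probe sets for the fission yeast S. pombe, and their signals served as the background. Signals are MAS5 values in arbitrary units and are not comparable between probe sets as amounts of transcript. A probe set counted as above background when it exceeded the 95th percentile of the 1746 S. pombe probe sets of the same array, which was 6.63 and 5.35 on the arrays labelled RNase H1 and 6.15 and 6.84 on the control arrays. Between the 2 arrays labelled RNase H1, 1550 of 5470 tested probe sets were over 1.5-fold apart, and between the control arrays 182. The probe set of RNH1, yeast's own RNase H1 gene, gave 303 and 307 on the arrays labelled RNase H1 and 320 and 292 on the control arrays. It therefore does not separate the groups, and directions are given between arrays as labelled.

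The mating-type markers differed between the groups. All 7 a-specific genes were above background on every array, and in all 7 both arrays labelled RNase H1 lay below both control arrays, where 30.8% of all tested probe sets were so separated. In limma 3 of the 7 fell, against 0.347% of all tested probe sets: STE2, the alpha-factor receptor gene, BAR1, which encodes the protease that degrades alpha-factor, and ASG7. STE2 had 3903 and 3853 on the arrays labelled RNase H1 and 7352 and 7527 on the control arrays (log2 −0.94, adjusted p = 0.0161 in limma). BAR1 and ASG7 had log2 fold changes of −2.54 and −2.86 (adjusted p of 0.0188 and 0.0428 in limma). All 7 haploid-specific genes were above background on every array. Of these, 5 were separated as lower and 1 as higher, where 30.8% and 28.0% of all tested probe sets were. At p under 0.05 before adjustment, 4 were on the lower and 1 on the higher side, against 12.7% and 11.0% of all tested probe sets. After adjustment, 0 passed in limma. The 4 alpha-specific genes were also above background on every array, with signals between 8.39 and 499, and 0 passed. MF(ALPHA)1, the main alpha-factor gene, had 13.0 and 9.40 on the arrays labelled RNase H1 and 8.39 and 20.3 on the control arrays. STE3, the a-factor receptor gene, had 138 and 75.6 with the RNase H1 plasmid and 33.6 and 41.5 with the empty vector, the 1 alpha-specific gene whose groups did not overlap (log2 1.45, adjusted p = 0.133 in limma). The part of these differences in the values of the meiosis genes was not tested.

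Most of the meiosis genes were dim but above the S. pombe background limit. A signal above this limit does not by itself show that a transcript was present. The 4 alpha-specific genes also exceeded it on every array, in cells of mating type a. On both arrays labelled RNase H1, 28 of 32 were above background, and on both control arrays 28 of 32 were, while 26 were above it on all 4 arrays. Of all S. cerevisiae probe sets, 98.2% and 98.0% passed the same limit in the 2 groups. A mean signal above 100 over the 4 arrays was reached by 7 of the 32 genes, while 90.1% of S. cerevisiae probe sets reached it. The median signal of the 32 was 42.8 and 27.8 on the arrays labelled RNase H1 and 25.1 and 24.1 on the control arrays. It was 612 and 562, against 567 and 578 in controls, over all tested probe sets. The 6 genes below background on at least 1 array were IME4, REC8, HOP2, MND1, SPS2 and CDA2.

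**Figure D1:**
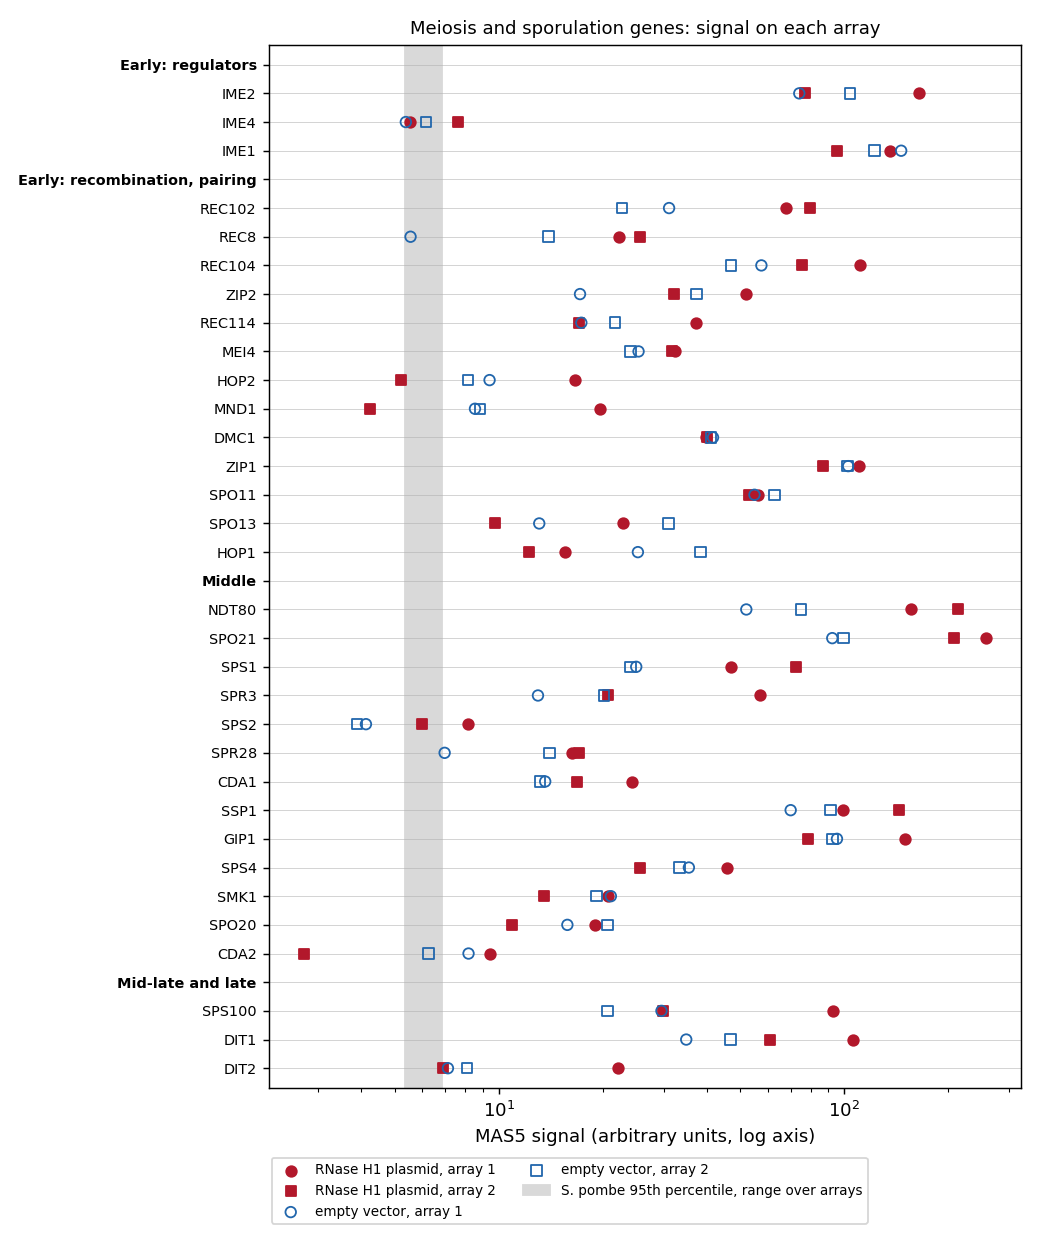
Signal of each of the 32 meiosis and sporulation genes on each array (log axis, arbitrary units), with genes grouped by class and sorted by log2 fold change within it; filled red symbols are the arrays labelled RNase H1, open blue symbols the empty vector arrays, and the grey band spans the S. pombe 95th percentiles of 5.35 to 6.84. SPO21 had the highest signal, 258, and CDA2 the lowest, 2.72.

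None of the 32 genes passed the test as higher or lower with the RNase H1 plasmid. In limma, at a Benjamini-Hochberg adjusted p under 0.05 over all 5470 tested probe sets, 0 of 32 were higher and 0 lower, where 1.13% of all tested probe sets were higher and 0.347% lower. Without adjustment, at p under 0.05, SPO21, NDT80, REC102 and SPS1 (4 genes) were on the higher side and HOP1 (1 gene) on the lower side, against 11.0% and 12.7% of all tested probe sets. In RNA from whole cultures, fewer cells with a transcript and less transcript per cell cannot be told apart. The groups did not overlap in 14 genes that were higher and in 2 that were lower with the RNase H1 plasmid, where 28.0% and 30.8% of all tested probe sets were so separated. The log2 fold change lay above 0 in 22 genes and below 0 in 10, while 48.6% of all tested probe sets lay above 0. The median log2 fold change was 0.38 over the 32 genes and −0.02 over all tested probe sets. For the 32 genes it was 0.17 after quantile scaling, 0.20 after loess scaling and 0.12 with a pseudocount of 64, and it was 0.11 when array 1 labelled RNase H1 was left out and 0.88 when array 2 was.

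Dim S. cerevisiae probe sets of other genes leaned the same way, while the S. pombe probe sets had a median log2 fold change of −0.23. Among 492 tested probe sets of other genes with a mean signal up to 100, a bound chosen after the values were seen, the median log2 fold change was 0.24 and 63.0% lay above 0. The groups did not overlap in 32.1% of these as higher and in 12.6% as lower. Of the meiosis genes, 25 lay under the same bound, with a median of 0.38. Of these 25, 17 lay above 0, 11 were separated as higher and 2 as lower. The part of low signal in the values of the meiosis genes was not tested further.

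**Figure D2:**
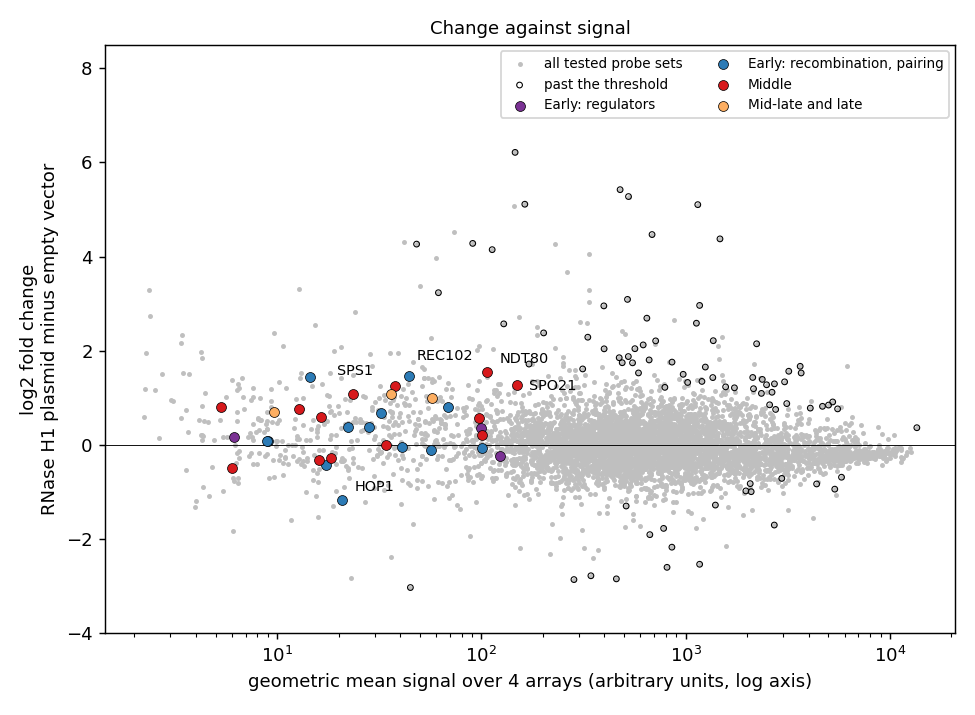
Log2 fold change (RNase H1 plasmid minus empty vector) against the geometric mean signal over 4 arrays (log axis) for all 5470 tested probe sets in grey, those past the threshold ringed in black, and the 32 meiosis and sporulation genes in colour by class. The coloured points lie at the dim end, and none of them is ringed.

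Among the early regulators, IME1 had a signal above background on every array. IME1 (YJR094C) had signals of 135 and 95.1 on the arrays labelled RNase H1 and 146 and 122 on the control arrays. The groups overlapped, at a log2 fold change of −0.24 ± 0.28 (SE, n = 2 against 2), with a 95% interval of −0.98 to 0.51. IME2 (YJL106W), the kinase that acts after Ime1, had 165 and 77.2 with the RNase H1 plasmid and 74.1 and 104 with the empty vector. Array 1 labelled RNase H1 was thus above both controls, and array 2 lay between them. IME4 (YGL192W), which encodes the mRNA N6-adenosine methyltransferase, had 5.53 and 7.62 with the RNase H1 plasmid and 5.38 and 6.16 with the empty vector. It was above background on 1 array labelled RNase H1 and on 0 control arrays, so its control level is only a bound.

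Genes that help Spo11 make the double-strand breaks of meiotic recombination gave both clear separation and overlap. SPO11 (YHL022C), the enzyme that cuts the DNA, had 56.1 and 53.0 with the RNase H1 plasmid and 55.0 and 62.7 with the empty vector, and the groups overlapped. REC102 (YLR329W), a partner of Spo11, had 67.9 and 79.7 with the RNase H1 plasmid and 31.1 and 22.8 with the empty vector, so both arrays labelled RNase H1 lay above both controls. The log2 fold change came to 1.47 ± 0.33 (SE, n = 2 against 2; a 2.77-fold difference), with a 95% interval of 0.60 to 2.34 and an adjusted p of 0.103 in limma. REC104 (YHR157W), another partner of Spo11, had 111 and 75.4 with the RNase H1 plasmid and 57.6 and 47.0 with the empty vector. Its groups were also separated, at a log2 fold change of 0.81 ± 0.33 (adjusted p = 0.221 in limma). MEI4 (YER044C-A), needed for break formation, had 32.4 and 31.8 with the RNase H1 plasmid and 25.4 and 24.1 with the empty vector. It was separated by a smaller difference, with a log2 fold change of 0.38 ± 0.34. REC114 (YMR133W), which works with Mei4, had 37.3 and 17.1 with the RNase H1 plasmid and 17.3 and 21.7 with the empty vector, and its groups overlapped.

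The axis, cohesion and synapsis genes did not move one way. HOP1 (YIL072W), a protein of the chromosome axis, had 15.6 and 12.3 with the RNase H1 plasmid and 25.3 and 38.3 with the empty vector, so both arrays labelled RNase H1 lay below both controls. The log2 fold change came to −1.17 ± 0.43 (SE, n = 2 against 2), with a 95% interval of −2.31 to −0.04 and an adjusted p of 0.202 in limma. REC8 (YPR007C), the meiotic cohesin subunit, had 22.3 and 25.7 with the RNase H1 plasmid and 5.55 and 13.9 with the empty vector. The groups did not overlap, but the control arrays differed more from each other than the arrays labelled RNase H1, 1 control array was below background, and the log2 fold change of 1.45 ± 0.60 had an interval of −0.13 to 3.02. ZIP1 (YDR285W), which spans the synaptonemal complex between paired chromosomes, had 111 and 86.8 with the RNase H1 plasmid and 103 and 102 with the empty vector. Its arrays overlapped around the close control values. ZIP2 (YGL249W), which acts at the start of synapsis, had 51.9 and 32.1 with the RNase H1 plasmid and 17.2 and 37.4 with the empty vector, again with overlap.

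The strand exchange genes lay close to the controls or on both sides of them. DMC1 (YER179W), the meiotic recombinase, had 39.9 and 40.0 with the RNase H1 plasmid and 41.7 and 41.1 with the empty vector. Although the groups did not overlap, the log2 fold change was −0.05 ± 0.30 (95% interval −0.83 to 0.73). HOP2 (YGL033W) and MND1 (YGL183C) encode 2 partners that help Dmc1. HOP2 had 16.6 and 5.20 with the RNase H1 plasmid and 9.40 and 8.14 with the empty vector. MND1 had 19.7 and 4.23 with the RNase H1 plasmid and 8.53 and 8.81 with the empty vector. In both, array 1 labelled RNase H1 was above the controls and array 2 was below them and below background. SPO13 (YHR014W), which keeps sister chromatids together at the first division, had 22.9 and 9.74 with the RNase H1 plasmid and 13.1 and 31.0 with the empty vector, so each group spread widely and they overlapped.

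Among the middle genes, the 3 with the smallest p were NDT80, SPO21 and SPS1. NDT80 (YHR124W), the activator of middle genes, had 156 and 213 on the arrays labelled RNase H1 and 52.1 and 74.9 on the control arrays. The lower of the RNase H1 values was above the higher control value by more than the controls differed from each other. The log2 fold change was 1.55 ± 0.32 (SE, n = 2 against 2; a 2.92-fold difference), with a 95% interval of 0.72 to 2.37 and an adjusted p of 0.0900 in limma. SPO21 (YOL091W), a component of the spindle pole body's meiotic outer plaque, had 258 and 208 with the RNase H1 plasmid and 92.3 and 99.4 with the empty vector. Its groups were well apart, at a log2 fold change of 1.27 ± 0.23 (a 2.42-fold difference, 95% interval 0.67 to 1.88, adjusted p = 0.0841 in limma), the smallest p of the 32. SPS1 (YDR523C), a kinase of spore wall assembly, had 47.0 and 72.7 with the RNase H1 plasmid and 25.0 and 24.1 with the empty vector. It was separated too, with a log2 fold change of 1.25 ± 0.37 (95% interval 0.29 to 2.21, adjusted p = 0.153 in limma).

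Other genes of prospore membrane and spore formation were closer to the controls. SSP1 (YHR184W), a protein of the prospore membrane's leading edge, had 99 and 144 with the RNase H1 plasmid and 70.0 and 91.4 with the empty vector. The groups were separated, but by less than the controls differed from each other. SPO20 (YMR017W), a SNARE protein for prospore membrane fusion, had 19.0 and 10.9 with the RNase H1 plasmid and 15.8 and 20.6 with the empty vector. GIP1 (YBR045C), a targeting subunit of the phosphatase Glc7, had 150 and 78.6 with the RNase H1 plasmid and 95.3 and 92.5 with the empty vector. SMK1 (YPR054W), a MAP kinase of spore wall assembly, had 20.7 and 13.5 with the RNase H1 plasmid and 21.1 and 19.2 with the empty vector. The groups of SPO20, GIP1 and SMK1 overlapped. The sporulation septin gene SPR3 (YGR059W) had 56.9 and 20.7 with the RNase H1 plasmid and 13.0 and 20.2 with the empty vector, so its separation rested on array 1, with array 2 just above the higher control. The other septin gene, SPR28 (YDR218C), had 16.3 and 17.0 with the RNase H1 plasmid and 6.97 and 14.0 with the empty vector, also without overlap.

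CDA1 (YLR307W) and CDA2 (YLR308W) encode chitin deacetylases that make the chitosan layer of the spore wall. CDA1 had 24.2 and 16.8 with the RNase H1 plasmid and 13.6 and 13.1 with the empty vector, without overlap. CDA2 had 9.42 and 2.72 with the RNase H1 plasmid and 8.17 and 6.26 with the empty vector, with overlap and with 1 array of each group below background. SPS2 (YDR522C), a spore wall protein gene, had 8.16 and 5.98 with the RNase H1 plasmid and 4.12 and 3.88 with the empty vector. Both control values were below background. With the controls set to their background limits, the mean difference had a lower bound of 1.08-fold. The bound rested on array 1 labelled RNase H1, since the 5.98 on array 2 was below both control limits, 6.15 and 6.84. The fitted adjusted p of SPS2 was 0.469 in limma. SPS4 (YOR313C) had 45.7 and 25.6 with the RNase H1 plasmid and 35.5 and 33.4 with the empty vector, with the controls between the other values.

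The mid-late and late genes were all higher on array 1 than on array 2 labelled RNase H1, by a median of 1.64 on the log2 scale. DIT1 (YDR403W), which starts synthesis of the dityrosine of the outer spore wall, had 106 and 61.0 with the RNase H1 plasmid and 34.9 and 46.8 with the empty vector. The groups did not overlap, and the log2 fold change was 0.99 ± 0.40 (95% interval −0.04 to 2.03, adjusted p = 0.221 in limma). DIT2 (YDR402C), the cytochrome P450 that joins the tyrosines, had 22.1 and 6.90 with the RNase H1 plasmid and 7.12 and 8.08 with the empty vector. Array 1 was above the controls and array 2 below them. SPS100 (YHR139C), which acts in spore wall maturation, had 92.7 and 29.9 with the RNase H1 plasmid and 29.6 and 20.7 with the empty vector, so array 2 was nearly level with the higher control. Its log2 fold change was 1.09 ± 0.64 (95% interval −0.57 to 2.75).

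By class, the median log2 fold change was 0.17 for the 3 early regulators, 0.09 for the 13 early recombination and pairing genes, 0.59 for the 13 middle genes and 0.99 for the 3 mid-late and late genes. With values below background set to the background limit of their array, these medians were 0.13, 0.24, 0.58 and 0.99. The medians of 0.17 and 0.09 are the values of IME4 and HOP2, both below background on at least 1 array. They therefore depend on values that are only bounds. Genes separated as higher numbered 0, 4, 8 and 2 in that order, where 28.0% of all tested probe sets and 32.1% of the other probe sets with a mean signal up to 100 were so separated. Those separated as lower numbered 0, 2, 0 and 0, where these shares were 30.8% and 12.6%. The classes were not tested against each other.

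**Figure D3:**
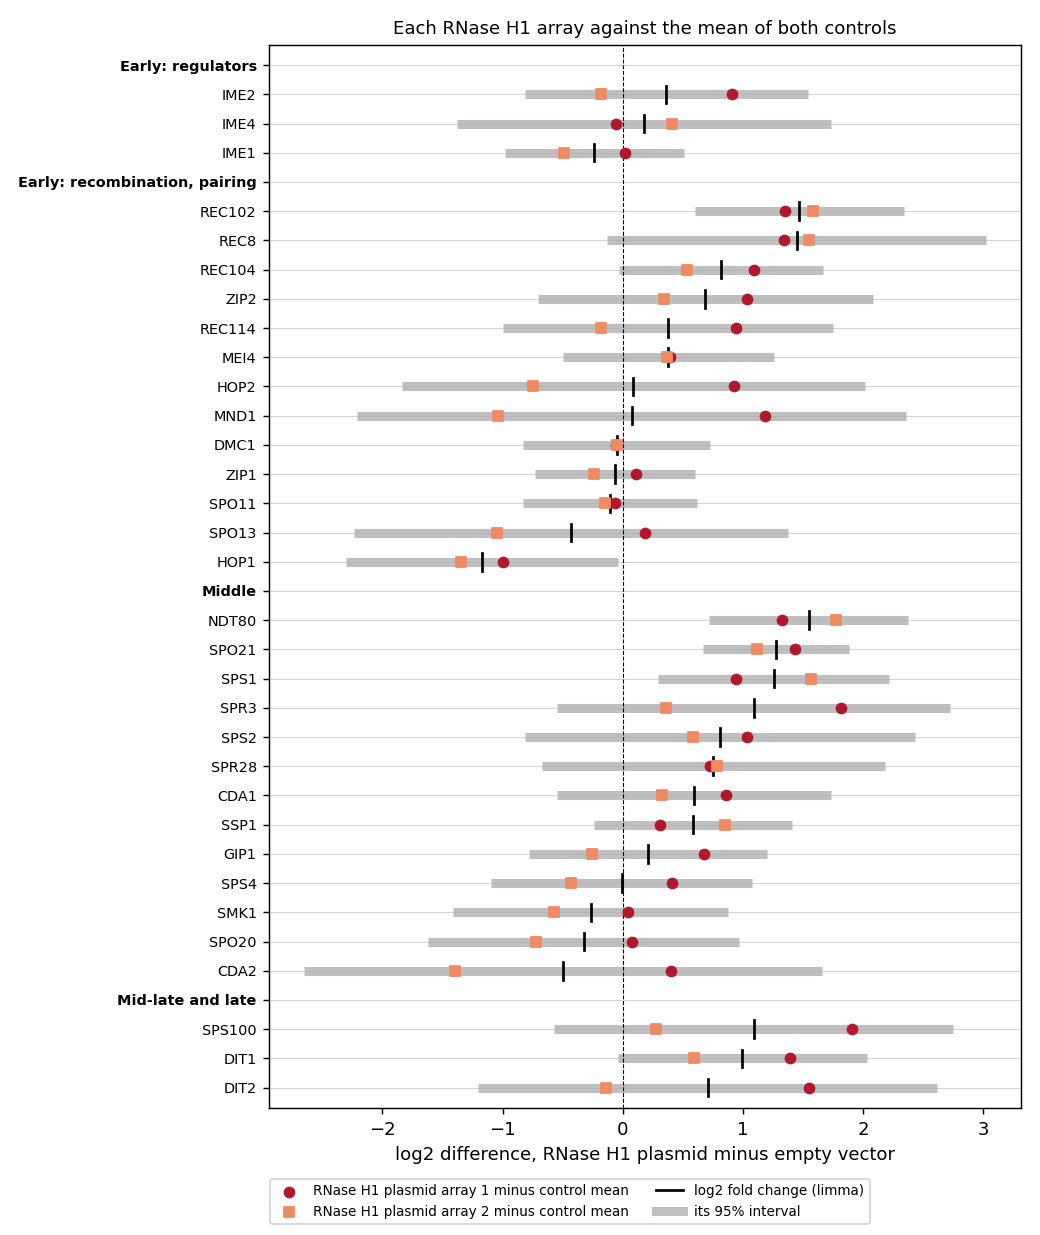
Log2 difference of each array labelled RNase H1 from the mean of both empty vector arrays (circles, array 1; squares, array 2), with limma's log2 fold change (black tick) and its 95% interval (grey bar), for the 32 genes by class. The interval lies above 0 for SPO21, NDT80, REC102 and SPS1 and below 0 for HOP1.

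The 2 arrays labelled RNase H1 are given apart because they differed. Array 1 was above array 2 in 24 of the 32 genes, against 59.9% of all tested probe sets and 369 of the 492 other probe sets with a mean signal up to 100. The median difference of the 32 genes from the control mean was 0.88 on array 1 and 0.11 on array 2 (log2), where all tested probe sets had 0.04 and −0.08 the 492 dim probe sets 0.56 and −0.01 and S. pombe probe sets 0.07 and −0.35. The 2 arrays were over 1.5-fold apart in 16 of the 32 genes (28.3% of all tested probe sets), and the control arrays in 6 of 32 (3.33%). Among the 492 dim probe sets these counts were 282 and 129. Middle genes had medians of 0.72 on array 1 and 0.36 on array 2, and early recombination and pairing genes 0.92 and −0.15. For the 3 mid-late and late genes the medians were 1.55 and 0.27, and for the 3 early regulators 0.02 and −0.19. The order of the classes thus differed between the 2 arrays. The 20 induced stress genes, such as HSP26 and SOD2, all had higher signals on array 1 than on array 2, and their medians were 0.64 and −1.17. Actin signal at the 3' end over that at the 5' end, a measure of RNA quality, was 1.68 and 1.48 on the arrays labelled RNase H1 against 1.34 and 1.34 on the control arrays by 1 actin probe set trio, and 1.47 and 1.30 against 1.41 and 1.40 by another. The part of stress, RNA quality or low signal in these values was not tested.

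Fits that left out 1 array labelled RNase H1 took their spread from the controls alone, so passing in them is no sign of stability. Without array 1, 5 of the 32 genes passed as higher and 1 as lower in limma, where 21.6% and 29.3% of all tested probe sets did. Without array 2, 9 passed as higher and 0 as lower, where 17.0% and 15.2% did. NDT80, SPO21 and REC102 were the 3 that passed in both fits. HOP1 passed as lower without array 1, with a log2 fold change of −1.34. SPS100, DIT1, SPR3, REC104, GIP1 and IME2 passed as higher without array 2, and SPS1 and SSP1 without array 1.

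Further meiosis genes, taken from textbook lists, were read beside the 32. Of 19 other early genes, 18 had a probe set, and 16 passed the signal filter and were tested. Of the 16, 0 passed as higher or lower in limma, where 1.13% and 0.347% of all tested probe sets did. At p under 0.05 before adjustment, 0 were on the higher and 1 on the lower side, against 11.0% and 12.7% of all tested probe sets. The median log2 fold change of the 16 was 0.20. Those with the smallest p were SPO16, a synapsis gene, with 92.4 and 41.6 on the arrays labelled RNase H1 and 134 and 154 on the control arrays, and MAM1, a monopolin subunit, with 41.7 and 56.4 against 24.7 and 27.6. Of 30 other middle and late genes, 0 passed, with 4 on the higher and 1 on the lower side before adjustment, to be read against the same shares. Their median was 0.37, where all tested probe sets had −0.02 and the 492 dim probe sets of other genes 0.24. LDS2, a gene of spore wall assembly, had 69.3 and 103 with the RNase H1 plasmid and 25.8 and 24.3 with the empty vector, at a log2 fold change of 1.76 ± 0.34 (adjusted p = 0.0877 in limma). SPS18 had 193 and 186 with the RNase H1 plasmid and 102 and 99.9 with the empty vector, a log2 fold change of 0.91 ± 0.21 (adjusted p = 0.108 in limma). In both, the groups did not overlap.

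Regulators of these genes were all above background on every array. Of 17 regulators, 0 passed in limma, and the median log2 fold change was −0.02. Before adjustment, 1 was on the higher side (RIM101) and 2 on the lower side (RME1 and MCK1), against 11.0% and 12.7% of all tested probe sets. MCK1 had 970 and 926 on the arrays labelled RNase H1 and 1192 and 1464 on the control arrays (log2 −0.48, adjusted p = 0.185 in limma). RME1 (YGR044C), the haploid repressor of IME1, had 1110 and 1041 on the arrays labelled RNase H1 and 1365 and 1480 on the control arrays, so both lay below both controls (log2 −0.40 ± 0.14, adjusted p = 0.181 in limma). RIM101 (YHL027W), a pH-responsive factor that also promotes IME1 expression, had 803 and 725 with the RNase H1 plasmid and 435 and 546 with the empty vector (log2 0.65 ± 0.19, adjusted p = 0.156 in limma). UME6, the DNA-binding repressor of early genes, had 634 and 426 with the RNase H1 plasmid and 464 and 564 with the empty vector, with overlap. SUM1, the repressor of middle genes, had 1307 and 1274 with the RNase H1 plasmid and 1430 and 1343 with the empty vector, a log2 fold change of −0.10. RIM4, a meiotic RNA-binding protein gene, was farthest from 0 of the 17, with 71.6 and 21.4 with the RNase H1 plasmid and 72.7 and 104 with the empty vector (log2 −1.15 ± 0.65, adjusted p = 0.334 in limma). UME6, SUM1 and RIM4 were picked after their values were seen.

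**Figure D4:**
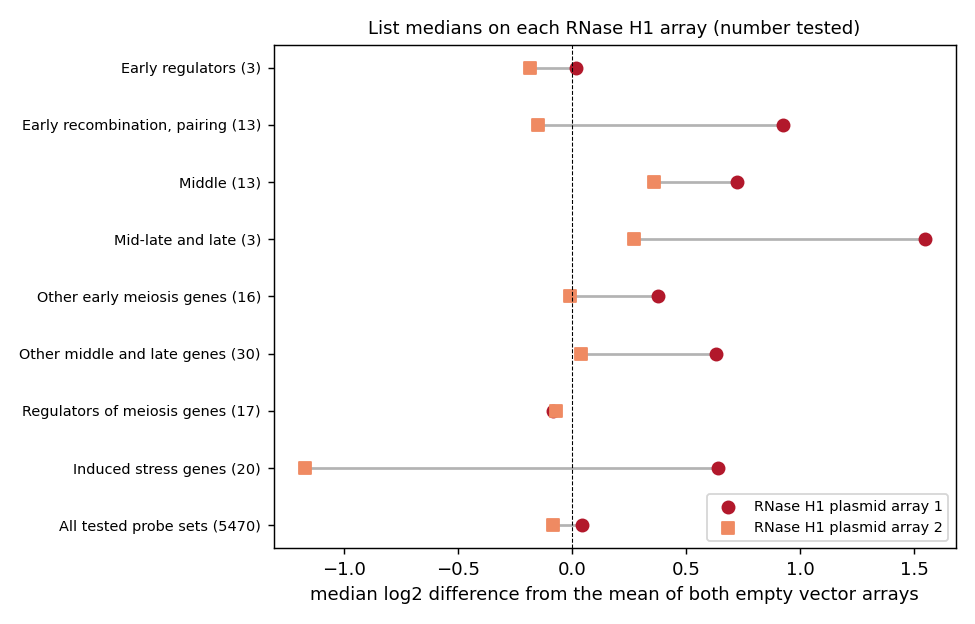
Median log2 difference from the mean of both empty vector arrays on array 1 (circles) and array 2 (squares) labelled RNase H1, for the 4 classes of meiosis and sporulation genes, the lists read beside them and all tested probe sets, with the number tested in brackets. The induced stress genes lie at 0.64 on array 1 and −1.17 on array 2, and the regulators at −0.08 and −0.07.

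Some of the genes are neighbours in the yeast genome. SPS1 and SPS2 lie next to each other, as do DIT1 and DIT2, and in neither pair did a gene pass. The log2 fold change was 0.99 for DIT1 and 0.70 for DIT2, while SPS1 was at 1.25 and SPS2 has only the bound given above. Between CDA1 and CDA2 lies DPA10, which was not tested. CDA1 and CDA2 went opposite ways, at log2 fold changes of 0.59 and −0.50, and neither passed. HOP1 lies next to SPO22, a synapsis gene that was singled out after its values were seen. SPO22 had 39.3 and 27.8 on the arrays labelled RNase H1 and 56.0 and 64.01 on the control arrays, and like HOP1 it did not overlap between groups and did not pass (log2 −0.86 ± 0.34, adjusted p = 0.218 in limma). Over the 32 genes, 52 directly neighbouring genes were tested, 4 of them (DIT1, DIT2, SPS1 and SPS2) members of the 32 themselves, and 0 passed as higher and 0 as lower, where 1.13% and 0.347% of all tested probe sets did.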

How the data were processed

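The authors deposited MAS5 signals, a linear intensity for each probe set on each array, computed in Affymetrix Expression Console per the submitters' processing notes. Their scaling target is not known here. Of 10928 probe sets, 5498 named exactly 1 S. cerevisiae gene and 1746 an S. pombe gene. Symbols were updated through the R64 gene table, which changed 12 and gave the neighbouring genes. Probe sets were tested when their mean log2 signal exceeded the S. pombe 75th percentile (a signal of 2.13), which kept 5470 probe sets and all 32 genes.

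Log2 signals were compared with limma 3.58.1 in R 4.3.3 (lmFit, eBayes with an intensity trend, two-sided), with Benjamini-Hochberg adjustment over all tested probe sets. The arrays were treated as unpaired, since nothing says that equal numbers share a day. Same-numbered arrays deviated from their group means with a correlation of −0.303 over the tested probe sets. With so few arrays, this value cannot show whether any of them share a day. The steps were tested on simulated data with known changes. They recovered 30.5% of log2 changes of 1, 65.7% of changes of 2 and 89.2% of changes of 4. The changed probe sets were drawn from all tested probe sets, and recovery among the 32 genes alone was not measured. The 32 genes varied more between replicates. Their median SD (log2) was 0.42 with the RNase H1 plasmid and 0.19 with the empty vector, against 0.24 and 0.08 over all tested probe sets. A gene that did not pass can therefore still differ between the groups. The number of arrays limits the precision: an exact permutation test of 2 arrays against 2 cannot reach the threshold.

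The genes and lists were chosen with earlier results of these data known. All 32 genes are named; of the other meiosis, regulator and stress lists, the 2 with the smallest p, except where stated, and of the mating-type lists counts with the genes past the threshold and a few markers. Alternatives were 3 scalings, other dim filters, robust eBayes or eBayes with no trend, pseudocounts of 16 and 64, other background limits, a replicate block, and leaving out each array. A crossed block, the bound on mean signal and values set to the background limit were added after seeing the data.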

Additional observations from a re-analysis of the deposited data

How the results depend on the processing

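The count of 0 genes higher and 0 lower held under quantile, median and cyclic loess scaling, both other dim filters, both pseudocounts, no intensity trend, robust eBayes and the replicate block, and across the scalings, pseudocounts, eBayes settings and the block the smallest adjusted p of the 32 in limma lay between 0.0582 (loess) and 0.143 (replicate block). When 1 array was left out, 0 to 9 passed as higher and 0 to 1 as lower, with calls only where an array labelled RNase H1 was missing. With the crossed block, added after seeing the data, 3 passed as higher and 0 as lower, where 8.83% and 8.30% of all tested probe sets did; the cause was not tested. The median log2 fold change of 0.38 was 0.17 after quantile scaling, 0.20 after loess scaling, 0.24 with a pseudocount of 16, 0.12 with one of 64, 0.37 with values below background set to the limit, and between 0.11 and 0.88 when 1 array was left out. Of 28 genes above background in each group, 26 with the RNase H1 plasmid and 24 with the empty vector were above the 99th percentile of the S. pombe probe sets. Of the 32 genes, 14 changed sign somewhere. After quantile scaling HOP2 was at −0.18, MND1 at −0.13 and IME4 at −0.087, and after loess scaling at −0.25, −0.26 and −0.20. SPS4 was at 0.0057 with a pseudocount of 16 and at 0.0099 with one of 64. When 1 array was left out, the log2 fold change ran from −0.75 to 0.92 for HOP2, −1.04 to 1.18 for MND1, −0.057 to 0.41 for IME4, −0.43 to 0.41 for SPS4 and −1.05 to 0.19 for SPO13. It ran from −0.18 to 0.94 for REC114, −0.14 to 1.55 for DIT2, −0.26 to 0.68 for GIP1, −0.19 to 0.91 for IME2 and −0.24 to 0.11 for ZIP1. It ran from −0.49 to 0.0174 for IME1, −0.58 to 0.0406 for SMK1, −0.73 to 0.0722 for SPO20 and −1.40 to 0.40 for CDA2. The low signals of the 32 genes, below the S. pombe background limit on at least 1 array in 6 of them, limit what 2 arrays a group can show.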
